A study of Mus musculus with 8 samples.

Results

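The net change of cumulus cells across ovulation was measured by setting the 2 arrays made 14 h after hCG against the 2 made at 0 h. These 4 of the 8 arrays of the series were compared on all 12422 probe sets that are not Affymetrix controls, of 12488 on the array. At each time 1 array held RNA of wild-type (WT) mice and 1 held RNA of EP2KO mice, whose genotype is Ptger2(-/-) and which lack the prostaglandin E2 receptor EP2. All mice were C57Bl/6 females of 3 to 4 weeks that had received 5 IU of PMSG, a gonadotropin that drives follicle growth, by injection into the abdomen. The 0 h mice were taken 48 h after PMSG with no hCG, and the others received 5 IU of hCG at that time, which stands in for the ovulatory LH surge. Complexes of the oocyte with its cumulus, at 0, 3 and 9 h, were let out of punctured antral follicles and the cumulus cells were stripped with glass capillaries. At 14 h the complexes came from the oviduct ampulla and the cells were freed with 0.1% hyaluronidase. The stage after ovulation, the site and the way of collection therefore cannot be told apart in any value at 14 h. The labels do not say how many animals gave each RNA, and the Ptger2 deletion is carried by every cell of the animal. With 1 array per genotype and time no condition has a replicate. The error therefore mixes the spread between single arrays with any course over time that differs between the genotypes.

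Cumulus cells are the granulosa cells that stay around the oocyte. Before the LH surge they divide, respond to FSH and make inhibins and activins. After the surge they secrete a hyaluronan matrix and spread, leave the follicle with the oocyte, and afterwards live for a short time in the oviduct. Granulosa cells that stay behind leave the cell cycle and become luteal cells, which make progesterone.

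The values are RMA log2 signals, so a difference of 1 is 2-fold, and levels are compared only between arrays for 1 probe set. Changes are given as log2 differences, 14 h minus 0 h, with the standard error of the fit (SE, 2 arrays per time), and a gene is said to have risen or fallen where its limma p, adjusted over all probe sets, was under 0.05. Array medians lay between 7.79 and 7.89. The signal of the 3' control probe set of Gapdh exceeded that of the 5' set by 2.87 (WT) and 2.82 (EP2KO) at 14 h and by 1.86 and 1.48 at 0 h. For Actb these differences were 1.61 and 1.37 against 0.97 and 0.69. They grow as the RNA or its amplified copy gets shorter, and their part in the changes was not tested. Ptger2 stood at 4.95, 5.97, 5.37 and 5.33 in WT at 0, 3, 9 and 14 h and at 4.57, 4.24, 4.69 and 4.51 in EP2KO, lower in EP2KO at every time. Of the genes named below, 22 lost their call when 1 array was left out, and their values are given at the end. In bulk RNA, fewer cells of a type and less RNA per cell cannot be told apart.

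Ovulated cumulus cells differed from unstimulated ones in 3575 probe sets, 28.8% of those tested. Of these, 1682 were higher and 1893 lower at 14 h, and all of them changed in the same direction in both genotypes. The fit counts disagreement between the genotypes as error, so probe sets with opposite changes could hardly be called. The shared direction is therefore no separate result. Large rises were more numerous than large falls. There were 575 rises and 402 falls of at least 2-fold, 146 and 50 of at least 4-fold, and 48 and 6 of at least 8-fold. The changes of both genotypes correlated across probe sets (not independent of each other) with r = 0.85 (Spearman 0.698). The median change over the 8251 named genes was −0.04. Counted by gene, 15.6% were higher and 15.7% lower at 14 h, and the gene lists below are read against these shares. The lists were chosen with earlier results of these data known, so their counts are in part fixed by that choice. The same fit gave the state at 9 h, when the cells were still in the follicle: 23.0% of probe sets had changed, with 12.2% of genes higher and 11.6% lower. The 9 h and 14 h differences share their 0 h arrays, so they are given side by side only. Without the WT array at 0 h the 14 h count was 2289 (1065 higher and 1224 lower), without the EP2KO array at 0 h 1258 were lower and without the EP2KO array at 14 h 1206. The 9 h count was 1225 without the WT array at 0 h, 1386 without the WT array at 9 h and 1327 without the EP2KO array at 9 h.

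**Figure D1:**
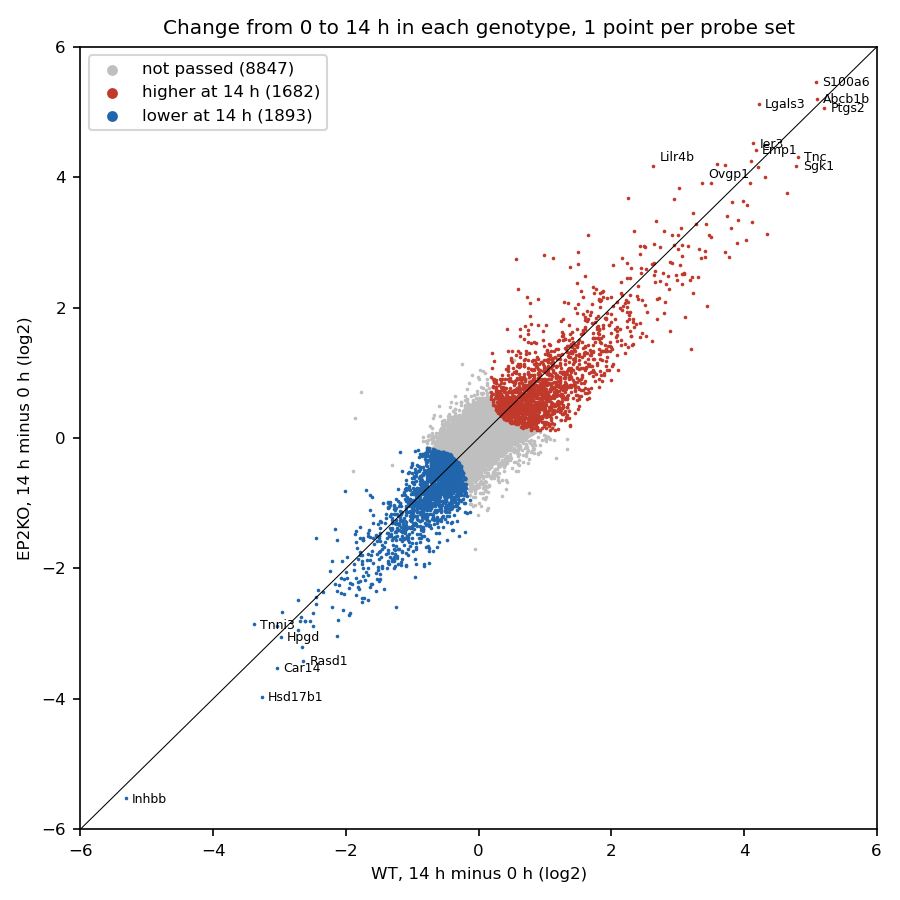
The change from 0 to 14 h in WT (x axis, log2) is plotted against that in EP2KO (y axis, log2), with 1 point per probe set and the line of equal change. Red points are the 1682 probe sets called higher and blue points the 1893 called lower; Inhbb at −5.42 stands alone at the lower left, and S100a6 (5.28) and Abcb1b (5.15) lead at the upper right.

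**Figure D2:**
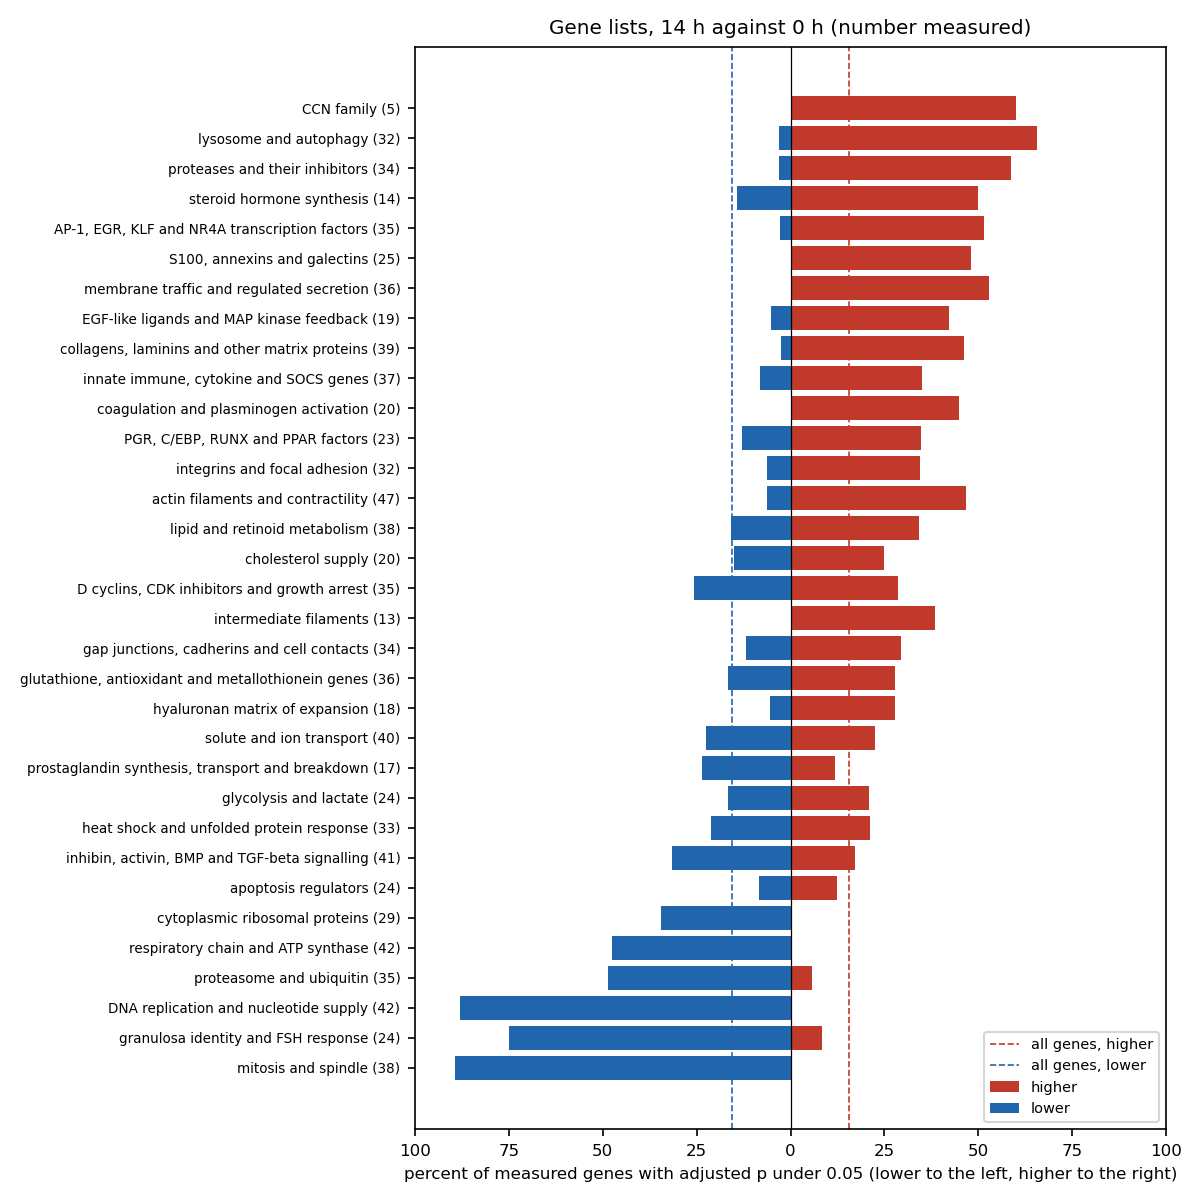
For each gene list shown, ordered by the median change of their members, the bar to the right gives the percent of measured genes that rose at 14 h and the bar to the left the percent that fell. The dashed lines mark the shares over all genes, 15.6% higher and 15.7% lower; the lists of mitosis, granulosa identity and DNA replication extend farthest to the left.

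Most listed genes of granulosa identity fell, in a list chosen with earlier results of these data known. Of 24 measured genes of granulosa identity and FSH response 18 fell, 2 rose and 4 did not pass, with a median of −1.08. By 9 h 17 had fallen, with a median of −0.94. The FSH receptor Fshr stood at 10.78 in WT and 11.11 in EP2KO at 0 h and at 9.19 in both at 14 h, a change of −1.75 ± 0.129 (adjusted p = 5.06e-06). Its arrays at 9 h were already at 9.27 and 9.24. Esr2, the main estrogen receptor of granulosa cells, went from 10.23 and 10.34 at 0 h to 8.67 and 9.46 at 9 h and 7.61 and 7.54 at 14 h, a change of −2.71 ± 0.184 (adjusted p = 3.06e-06). Fshr and Esr2 thus had separate ranges at 0 and 14 h, and Esr2 was lower at 14 h than in either 9 h array. Falls were also seen for Kitl, the ligand through which granulosa cells act on the oocyte's Kit receptor (−0.82), Gata6, a transcription factor of granulosa genes (−1.34) and Nr5a2, a nuclear receptor needed for ovulation (−0.78). Other probe sets of Gata6 stood at −0.42 and −0.16 without passing. Hsd17b1, which makes estradiol from estrone, held at 12.10 and 12.51 at 0 h and was at 8.83 and 8.54 at 14 h. Sfrp4, a secreted Wnt antagonist of the periovulatory follicle, moved the other way, from 8.42 and 8.65 to 11.92 and 11.73 (3.29 ± 0.224, adjusted p = 3.06e-06), and Foxo3, a forkhead factor, rose by 0.93. Both were listed as granulosa genes, and Sfrp4 had risen by 1.72 at 9 h.

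The inhibin and activin subunits fell together, and other genes of inhibin, activin, BMP and TGF-beta signalling moved in both directions. Inhbb, the subunit of inhibin B and activin B, was at 12.65 and 12.79 at 0 h, 11.17 and 11.80 at 3 h, 10.19 and 11.17 at 9 h and 7.33 and 7.26 at 14 h. Each later pair of arrays lay below the pair before it, apart from 1 value shared between 3 and 9 h. Inha, the subunit common to both inhibins, fell by 1.78 ± 0.141 (adjusted p = 8.66e-06), from 14.22 and 14.37 to 12.70 and 12.34, and Inhba, the subunit of activin A, fell by 2.14 ± 0.174. The activin antagonist follistatin (Fst, −1.49) and the BMP receptors Bmpr1b (−1.55) and Bmpr2 (−1.67) fell. Among BMP targets Id3 (−2.22), Id1 (−0.93) and the inhibitory Smads Smad7 (−1.14) and Smad6 (−0.56) fell, but Id2 rose by 2.27 ± 0.312. Of the ligands Bmp6 rose by 1.33 ± 0.129 and Tgfb1 by 0.54, while Tgfb3 fell by 0.60. Ltbp1, which stores latent TGF-beta in the matrix, stood at 6.84 and 7.01 at 0 h, 7.0 and 7.02 at 9 h and 9.05 and 9.08 at 14 h. Its rise of 2.14 ± 0.132 (adjusted p = 1.7e-06) was thus not seen at 9 h, where the difference was 0.09. Over all 41 measured genes of this list 13 fell (31.7%, against 15.7% of all genes) and 7 rose (17.1%, against 15.6%). The other 21 did not pass, and the median was −0.11.

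Star, Cyp11a1 and Fdx1, of the first steps of steroid synthesis, rose, while Hsd17b1, of estradiol synthesis, fell. Cyp11a1, which cuts the side chain of cholesterol, was at 8.57 and 9.31 at 0 h, 10.30 and 9.63 at 9 h and 11.89 and 12.21 at 14 h (3.11 ± 0.264, adjusted p = 1.31e-05). Its electron donor Fdx1 rose by 2.78, and 9 h and 14 h arrays lay at a like level, from 14.11 to 14.43. Star, which brings cholesterol into the mitochondrion, followed another course, from 6.72 and 6.29 at 0 h to 10.18 and 9.73 at 9 h and back to 8.96 and 8.30 at 14 h. Mrap, an accessory protein of melanocortin receptors, also stood lower at 14 h (11.54 and 11.51) than at 9 h (12.23 and 12.28), against 8.27 and 8.22 at 0 h. Another Star probe set was at 0.08 and another of Fdx1 at −0.24, neither passing. In all 7 of 14 measured steroid genes rose and 2 fell, Hsd17b1 and Hsd11b2, which inactivates glucocorticoids (−1.16).

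Most genes of cholesterol supply had risen by 9 h, and fewer passed as risen at 14 h. Of 20 measured genes of cholesterol supply 14 rose and none fell at 9 h, with a median of 0.60. At 14 h 5 rose and 3 fell, with a median of 0.13. Hmgcs1, which starts the pathway, was at 8.39 and 9.25 at 0 h, 10.80 and 11.01 at 9 h and 9.29 and 9.00 at 14 h. Msmo1, a sterol demethylating enzyme, went from 10.20 and 10.59 to 12.25 and 12.27 and then to 10.09 and 9.77. The later enzymes Sqle and Nsdhl had risen by 0.80 and 0.48 at 9 h and fell at 14 h, with changes of −0.86 and −1.08. The 5 that rose at 14 h were Abca1, which exports cholesterol, at 2.80, Npc2, which releases it from lysosomes, at 1.45, the lipoprotein receptor Scarb1 at 0.83, the regulator Srebf1 at 0.65 and the ester hydrolase Lipe at 0.52. Without the WT array at 0 h, or without that at 14 h, this count was 3, and without either 3 h array 5 genes fell. Abca1 rose from 8.32 and 8.19 to 11.41 and 10.70, with only 0.49 of its 2.80 present at 9 h, and another Abca1 probe set stood at −0.25 without passing.

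DNA replication and cell division genes fell almost as a whole. Of 42 measured genes of DNA replication and nucleotide supply 37 fell and none rose, with a median of −0.98, and of 38 genes of mitosis and the spindle 34 fell and none rose, with a median of −1.22. At 9 h 23 and 16 of them had fallen, with medians of −0.48 and −0.42. Mcm3, a subunit of the replicative helicase, was at 11.04 and 11.22 at 0 h, 10.15 and 10.45 at 9 h and 8.83 and 8.63 at 14 h (−2.40 ± 0.146, adjusted p = 1.64e-06). Cdc6, which loads that helicase on origins, went from 9.35 and 9.50 to 7.65 and 8.26 and then 6.90 and 7.06. Rrm1, a subunit of ribonucleotide reductase, fell by 1.82 ± 0.116, and falls were seen for Fen1, which trims Okazaki fragments (−2.14), Pola1, the catalytic subunit of polymerase alpha (−1.95) and Pcna, the sliding clamp (−1.22). The 5 replication genes that did not pass were Dut (0.02), Orc1 (−0.12), Mcm6 (−0.13), Prim2 (−0.43) and Gmnn (−0.55). 

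For mitosis, much of the fall came between the 9 h and 14 h arrays. Aurka, a spindle pole kinase, was at 9.51 and 9.86 at 0 h, 9.09 and 9.44 at 9 h and 7.85 and 7.38 at 14 h (−2.07 ± 0.188, adjusted p = 2.16e-05). Birc5, survivin, was at 9.39 and 9.68, then 8.95 and 9.33, then 7.32 and 7.30. Cdc20, an activator of the anaphase-promoting complex, was at 11.51 and 11.92, then 11.49 and 12.03, then 10.13 and 9.93. In all 3 the 9 h arrays overlapped or lay close to the 0 h arrays and the 14 h arrays lay well below. Cks1b, a small partner of cyclin-dependent kinases, had risen by 0.79 at 9 h and fell by 1.39 at 14 h. The 4 mitosis genes that did not pass were Cks2 (0.33), Cenpe (−0.43), Lmnb1 (−0.58) and Hmgb2 (−0.88). The counts of falls stayed within 1.5 times of these when any 1 array was left out, and without the EP2KO array at 14 h 1 mitosis gene rose.

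Promoters of these 2 lists are shown because their members moved together. E2F factors drive genes of DNA replication and bind motifs of the type TTTCCCGC, TTTGGCGC, TTTCGCGC or TTTGCCGC. The cell cycle homology region (CHR), with the core TTTGAA, is known from promoters of mitotic genes. Each was searched on both strands in the RefSeq promoter windows (GRCm38.p6), 250 bases before to 50 after a start, each motif by itself, so that matches of different motifs may overlap. An E2F motif was found for 14 of the 37 replication genes with a window (37.8%) and for 1 of 30 mitosis genes, against 4.32% of 6576 measured genes and 2.26% of all 32851 windows. A CHR was found for 22 of the 30 mitosis genes (73.3%) and for 16.2% of the replication genes, against 15.5% of measured genes and 17.9% of all windows. The CCAAT box, which often lies near a CHR, was found for 80.0% of mitosis and 67.6% of replication genes against 42.5% of measured genes. Genes without the motif fell as well: 12 of 14 replication genes with an E2F match and 22 of 23 without fell (medians −1.40 and −0.97), as did 21 of 22 mitosis genes with a CHR and 6 of 8 without (medians −1.34 and −1.40). A match is a description of the letters and not a bound site. The stretches below are the 250 bases before the start of the 2 genes of each list with the largest fall among those whose match lies wholly before the start, in the direction of the gene, with the E2F motif of Cdc6 (chr11:98907901-98908150, plus strand) and Pola1 (chrX:93632156-93632405, minus strand) and the CHR of Mki67 (chr7:135716380-135716629, minus strand) and Cdk1 (chr10:69352913-69353162, minus strand) in capitals.
Cdc6: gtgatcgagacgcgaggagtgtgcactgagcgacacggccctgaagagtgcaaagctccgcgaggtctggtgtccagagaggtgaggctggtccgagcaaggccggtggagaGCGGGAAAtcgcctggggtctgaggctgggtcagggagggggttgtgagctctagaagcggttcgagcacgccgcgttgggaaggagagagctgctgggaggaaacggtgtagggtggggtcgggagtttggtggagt
Pola1: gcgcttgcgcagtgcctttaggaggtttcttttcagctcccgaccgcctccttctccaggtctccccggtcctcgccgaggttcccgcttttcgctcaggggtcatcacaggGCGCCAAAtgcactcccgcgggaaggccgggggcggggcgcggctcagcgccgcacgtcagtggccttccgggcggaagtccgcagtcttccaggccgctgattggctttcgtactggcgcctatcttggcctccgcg
Mki67: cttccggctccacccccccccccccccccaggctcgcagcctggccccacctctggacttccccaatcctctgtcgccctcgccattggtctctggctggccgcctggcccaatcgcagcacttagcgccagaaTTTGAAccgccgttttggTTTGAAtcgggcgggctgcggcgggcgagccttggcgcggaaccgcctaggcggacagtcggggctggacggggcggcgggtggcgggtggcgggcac
Cdk1: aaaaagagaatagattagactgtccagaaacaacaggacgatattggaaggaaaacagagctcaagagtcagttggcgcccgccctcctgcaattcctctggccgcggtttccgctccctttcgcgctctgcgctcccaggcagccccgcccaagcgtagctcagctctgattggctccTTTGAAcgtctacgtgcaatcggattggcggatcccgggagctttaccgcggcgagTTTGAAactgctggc
The E2F match of Cdc6 and that of Pola1 both begin 138 bases before the start, and both read on the opposite strand. The CHR matches of Mki67 begin 116 and 98 bases before the start and those of Cdk1 71 and 15 bases before it. Mki67, a marker of dividing cells, fell from 9.66 and 9.91 to 7.88 and 7.71, with another probe set at −0.41 that did not pass, and Cdk1, the mitotic kinase, fell from 11.08 and 11.48 to 9.44 and 9.20.

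Regulators of cell cycle entry and arrest moved in both directions. Of 35 measured genes 10 rose and 9 fell, with a median of 0.11. Gadd45a, a growth arrest gene of the stress response, was at 7.27 and 7.46 at 0 h, 9.15 and 9.22 at 9 h and 11.04 and 10.24 at 14 h (3.28 ± 0.222, adjusted p = 3.04e-06). The antiproliferative genes Btg2 and Btg1 rose by 1.97 and 1.40 and the kinase inhibitor Cdkn1a by 0.94 ± 0.271 (adjusted p = 0.0255). The cyclin Ccnd2, which FSH induces in granulosa cells, fell from 11.07 and 11.15 to 8.45 and 8.34, while the related Ccnd3 rose by 0.60 and Ccnd1 was at −0.12 without passing. The 3 Myc genes differed in direction. Mycl (−2.96) and Mycn (−1.93) fell, whereas Myc was at 6.37 and 6.23 at 0 h, 6.28 and 6.43 at 9 h and 7.87 and 8.29 at 14 h (1.78 ± 0.145, adjusted p = 1.01e-05).

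**Figure D3:**
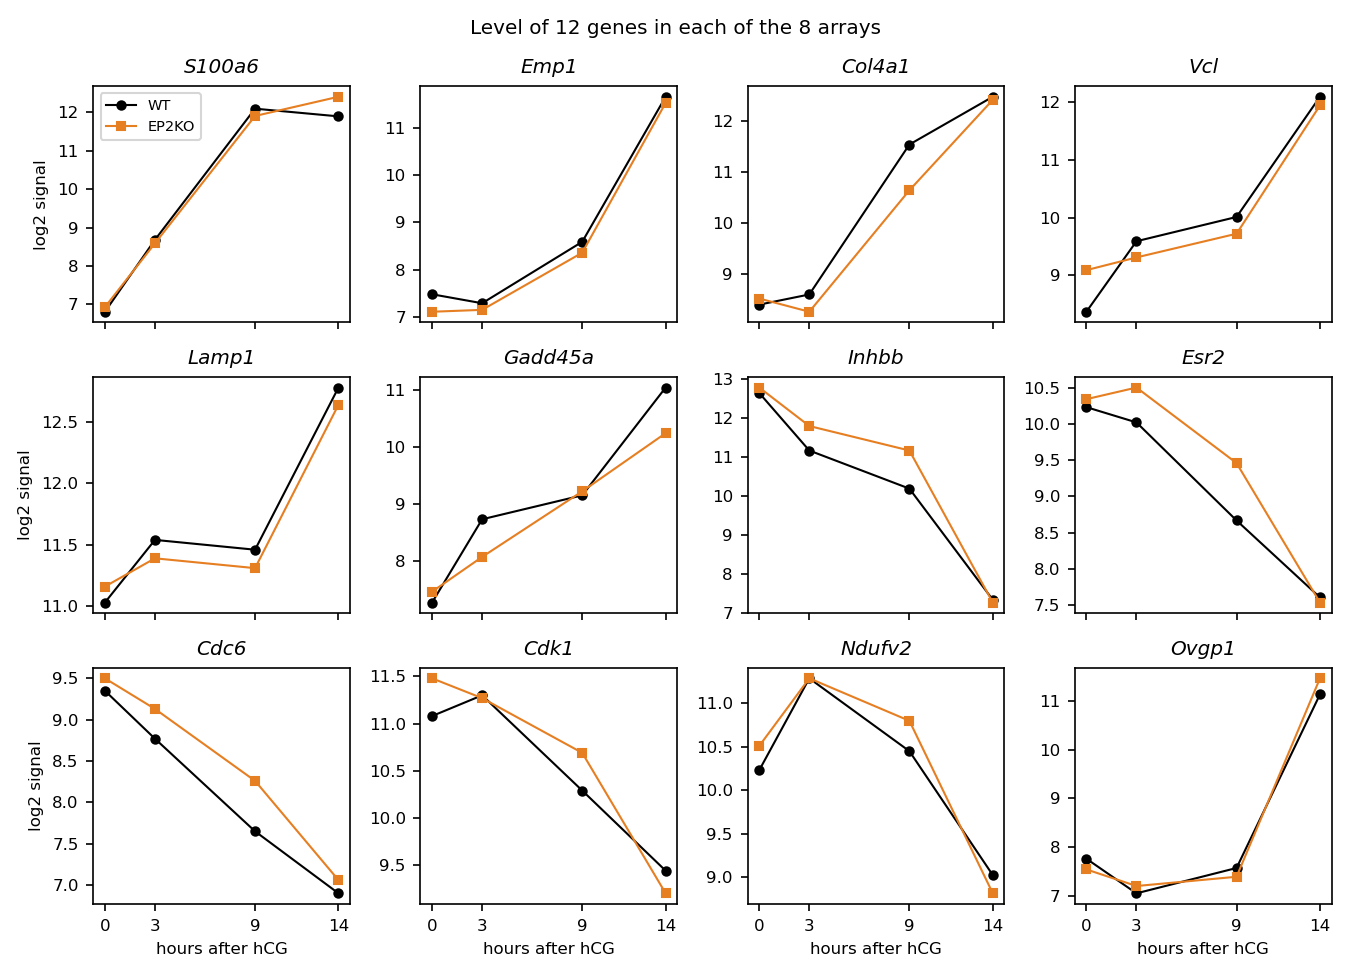
The log2 signal of 12 genes is plotted against hours after hCG, with black circles for WT and orange squares for EP2KO, 1 array each; the y axes differ between genes. Emp1, Lamp1, Vcl and Ovgp1 rise mostly between 9 and 14 h, Cdc6 and Inhbb fall through the course, and Ndufv2 is highest at 3 h and lowest at 14 h.

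Chains of basement membrane collagen and laminin were among the rises. Of 39 measured collagens, laminins and matrix proteins 18 rose, 1 fell and 20 did not pass, with a median of 0.32. The 2 chains of the main basement membrane collagen, which lie side by side in the genome and share a promoter region, rose together: Col4a1 from 8.39 and 8.51 to 12.48 and 12.42, and Col4a2 from 8.78 and 8.56 to 11.23 and 11.17 (2.53 ± 0.119, adjusted p = 3.58e-07). Their laminin partners Lamb1, Lamc1 and Lama1 rose by 1.92, 1.25 and 0.79. Sparc, a collagen-binding protein, rose by 2.71, the collagen chaperone Serpinh1 by 1.71 and Lox, which crosslinks collagen, by 3.71. Fibronectin (Fn1) was at 8.24 and 8.10 at 0 h, 8.50 and 8.56 at 9 h and 10.05 and 10.24 at 14 h, and tenascin C (Tnc) at 7.16 and 6.92, then 7.57 and 7.54, then 10.18 and 10.76. At 9 h the differences of 0.36 and 0.51 did not pass, but a second Tnc probe set had risen by 1.14 at 9 h and rose by 4.56 at 14 h. The fibrillar collagens of stroma did not pass, with Col1a1 at −0.03, Col1a2 at −0.38 and Col3a1 at 0.14, although Col1a2 fell by 0.65 without the EP2KO array at 0 h.

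Genes of the hyaluronan matrix were lower at 14 h than at 9 h in part. Has2, the hyaluronan synthase, was at 7.39 and 7.21 at 0 h, 8.64 in both arrays at 9 h and 7.39 and 7.45 at 14 h, so that the 0 h and 14 h arrays overlapped. Ptx3, a pentraxin that links the matrix, was at 7.54 and 7.23, then 11.68 and 11.81, then 9.51 and 8.96. Vcan, a hyaluronan-binding proteoglycan, kept a rise of 1.90 ± 0.135 (2.05 at 9 h) and Tnfaip6, which transfers heavy chains to hyaluronan, of 3.72 ± 0.127 (3.55 at 9 h). In all 5 of 18 measured genes rose and 1 fell, or 3 rose without the EP2KO array at 14 h. The CCN proteins, matricellular signals, were split: Ccn1 rose by 1.52, Ccn4 by 1.11 and Ccn5 by 1.0, and Ccn2 was at −0.06 after −1.01 at 9 h; without the EP2KO array at 0 h Ccn2 fell by 0.56.

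Many adhesion and cytoskeleton genes were among the rises. Of 32 measured integrins and focal adhesion genes 11 rose, 2 fell and 19 did not pass, and of 47 genes of actin filaments 22 rose, 3 fell and 22 did not pass, with a median of 0.26 in both lists. Without the WT array at 0 or 14 h 1 integrin gene fell, and without either EP2KO array at 0 or 14 h 1 actin gene. Vcl, vinculin, which ties integrins to actin, was at 8.37 and 9.09 at 0 h, 10.01 and 9.72 at 9 h and 12.09 and 11.94 at 14 h (3.29 ± 0.216, adjusted p = 2.45e-06), with another probe set at 0.04. The adhesion kinase Ptk2b went from 8.11 and 8.13 to 10.77 and 10.69 (2.61 ± 0.135), the crosslinker Actn1 rose by 2.08 and the integrin Itgb1 by 1.65. Pdlim1, an adaptor that binds alpha-actinin, had risen by 0.83 at 9 h and fell by 1.66 at 14 h. Moesin (Msn), which anchors actin to the membrane, rose from 8.62 and 8.28 to 11.27 and 10.97 (2.67 ± 0.112, adjusted p = 1.73e-07), the tropomyosins Tpm4 and Tpm1 by 2.82 and 2.04 and thymosin Tmsb4x by 3.01. Muscle forms did not pass, with Acta1 at −0.27, Acta2 at −0.10 and Cnn1 at −0.24. The CArG box, which serum response factor binds, was found for 7 of 42 genes of the actin list with a promoter window (16.7%, against 1.92% of measured genes), but only Cnn2 (1.22) and Actg1 (0.88) of these 7 rose.

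Of 34 cell contact genes 10 rose and 4 fell, or 2 fell without the WT array at 0 h, the EP2KO array at 0 h or the WT array at 14 h. Emp1, a membrane protein of cell contacts, was at 7.48 and 7.11 at 0 h, 8.59 and 8.36 at 9 h and 11.66 and 11.53 at 14 h, with the smallest p of all named genes (4.30 ± 0.119, adjusted p = 1.62e-08). F11r, junctional adhesion molecule A, rose from 8.30 and 8.54 to 11.25 and 11.50, of which 0.95 was present at 9 h. The gap junction protein connexin 43 (Gja1), through which cumulus cells are coupled, was at 13.42 and 13.33 at 0 h and 13.51 and 13.28 at 14 h, with overlapping arrays and a difference of 0.02 ± 0.119. Desmoplakin (Dsp, −1.31) and Tenm4 (−2.81) fell.

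Most measured genes of the lysosome, protease and membrane traffic lists rose. Of 32 measured genes of lysosome and autophagy 21 rose and 1 fell, with a median of 0.64, against 13 and none at 9 h. Lamp1, the main protein of the lysosomal membrane, was at 11.03 and 11.16 at 0 h, 11.46 and 11.31 at 9 h and 12.78 and 12.64 at 14 h (1.62 ± 0.123, adjusted p = 6.75e-06). Its relative Lamp2 rose by 1.52, Psap, the precursor of the saposins, from 11.31 and 11.23 to 13.53 and 13.35, and Atp6ap1, an accessory subunit of the lysosomal proton pump, by 2.27. Other probe sets of Psap stood at 0.77 and −0.12 and one of Atp6ap1 at −0.31. The tetraspanin Cd63 had already risen by 2.42 at 9 h. Becn1, a starter of autophagy, rose by 1.14, and Atg5 fell by 0.46.

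Of 34 proteases and inhibitors 20 rose and 1 fell. Legumain (Lgmn), a lysosomal protease, was at 7.06 and 6.89 at 0 h, 7.98 and 7.91 at 9 h and 10.56 and 10.80 at 14 h. Cathepsins Ctsb, Ctsd and Ctsh rose by 1.86, 1.13 and 0.87, while Ctsc was as high at 9 h (3.03) as at 14 h (2.85). The metalloprotease inhibitors Timp1 and Timp3 rose by 2.80 and 1.98, and Mmp11, Mmp14 and Adam10 by 1.69, 0.95 and 1.20. Another Timp1 probe set fell by 0.68. Of 20 genes of coagulation and plasminogen activation 9 rose and none fell. Plat, the tissue plasminogen activator, was at 8.04 and 7.51 at 0 h, 7.96 and 7.91 at 9 h and 9.81 and 9.79 at 14 h, and protein S (Pros1) at 7.63 and 7.59, then 7.62 and 7.74, then 8.80 and 8.95. Procr, the endothelial protein C receptor, moved earlier, with 4.28 at 9 h and 2.36 at 14 h.

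Of 36 genes of membrane traffic 19 rose and none fell, or 12 without the WT array at 0 h. Caveolin 1 (Cav1), the coat of caveolae, was at 7.62 and 7.0 at 0 h, 9.50 and 9.18 at 9 h and 11.22 and 11.21 at 14 h (3.91 ± 0.147, adjusted p = 1.17e-07), with another probe set at −0.15. Clathrin (Cltc) rose by 1.22, the early endosome gene Rab5a by 1.05, the fusion genes Stxbp3 and Stx4a by 1.60 and 1.11 and the surface proteoglycans Sdc4 and Gpc1 by 1.32 and 1.52. Neuronal secretory genes did not pass, such as Syt1 at −0.20 and Snap25 at −0.24. Of 25 S100 proteins, annexins and galectins, which bind calcium, membranes or sugars, 12 rose and none fell. Annexin 2 (Anxa2) was at 9.87 and 10.20 at 0 h, 12.37 and 12.33 at 9 h and 13.10 and 13.66 at 14 h, and its partner S100a10 at 9.36 and 9.56, then 12.51 and 12.30, then 11.59 and 12.24. Lgals1 rose by 2.57 and Anxa5 by 1.47.

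Genes that the ovulatory signal induces early were in part still high. Of 19 EGF-like ligands and MAP kinase feedback genes 8 rose and 1 fell. The feedback inhibitors Dusp6, Spred2 and Errfi1 were higher by 3.10, 2.27 and 2.27 (2.62, 2.04 and 2.10 at 9 h), while the ligand Btc was at 0.27 after a rise of 1.47 at 9 h. Dusp1, another MAP kinase phosphatase, was higher at 14 h (10.26 and 10.57) than at 9 h (9.28 and 9.14) and at 0 h (8.39 and 8.40). Another Dusp6 probe set fell by 0.49. Of 35 AP-1, EGR, KLF and NR4A factors 18 rose and 1 fell, with Bhlhe40 at 2.57, Klf6 at 2.18, Egr2 at 1.79 and Nr4a1 at 1.67. Klf4 was higher by 2.04 in 1 probe set and fell by 0.49 in another. Fos was at −0.12 and Fosl2 at 0.03. Of 23 genes of the progesterone receptor, C/EBP, RUNX and PPAR group 8 rose and 3 fell; 3 rose without the WT array at 0 h, and 1 fell without the EP2KO array at 0 h. Pgr, the progesterone receptor, was at 0.10, Cebpb was at 1.05 after 2.32 at 9 h, Runx1 rose by 1.17 and Pparg fell from 8.86 and 9.39 to 7.02 and 6.98.

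Of 17 prostaglandin genes 2 rose (11.8%, against 15.6% of all genes), 4 fell (23.5%, against 15.7%) and 11 did not pass. Ptgs2, the inducible cyclooxygenase, was at 4.83 and 5.03 at 0 h, 12.27 and 11.57 at 3 h and 10.04 and 10.09 at 14 h, and Acsl4, which handles arachidonic acid, was higher by 3.73 ± 0.261. Ptges, a prostaglandin E synthase, fell by 1.43, Ptgis, the prostacyclin synthase, from 10.03 and 9.90 to 7.87 and 7.66, and Hpgd, which inactivates prostaglandins, from 9.85 and 9.98 to 6.87 and 6.93. Among the prostaglandin E2 receptors Ptger4 was at 0.51 and Ptger2 at 0.16, neither passing.

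Lists of mitochondrial respiration, the ribosome and the proteasome had medians above 0 at 9 h and below 0 at 14 h. Of 42 measured genes of the respiratory chain and ATP synthase 17 rose and 1 fell at 9 h (median 0.28), and none rose and 20 fell at 14 h (median −0.37). Ndufv2, a subunit of complex I, was at 10.23 and 10.51 at 0 h, 10.45 and 10.80 at 9 h and 9.02 and 8.81 at 14 h (−1.45 ± 0.149, adjusted p = 4.93e-05), with another probe set at 0.07. Atp5e, of ATP synthase, was at 8.96 and 9.22, then 9.61 and 9.99, then 7.54 and 7.55. Cox7b, of complex IV, was at 9.05 and 9.11, then 10.57 and 10.87, then 8.90 and 9.11, so that its 0 h and 14 h arrays overlapped. Of 29 ribosomal proteins 12 rose and 3 fell at 9 h (median 0.33), and none rose and 10 fell at 14 h (median −0.25). Rps7 went from 11.78 and 11.97 to 12.67 and 13.18 and then 10.61 and 10.93. Of 35 proteasome and ubiquitin genes 10 rose and 3 fell at 9 h (median 0.26), and 2 rose and 17 fell at 14 h (median −0.40). Psmb6, a catalytic subunit, was at 10.71 and 10.77, then 11.48 and 11.83, then 9.74 and 9.81, and Psma2 fell from 12.27 and 12.44 to 10.24 and 10.27. The 2 that rose were Sqstm1, an autophagy receptor, by 0.96, and the immunoproteasome subunit Psmb8 by 0.87. Without the EP2KO array at 0 h 11 respiratory and 8 proteasome genes fell, and without the EP2KO array at 14 h 10 proteasome genes fell. The 3' to 5' differences of the control genes were largest at 14 h, and their part in these falls was not tested. These lists hold genes with several near-identical copies, above all the ribosomal proteins, which probe sets may not tell apart.

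**Figure D4:**
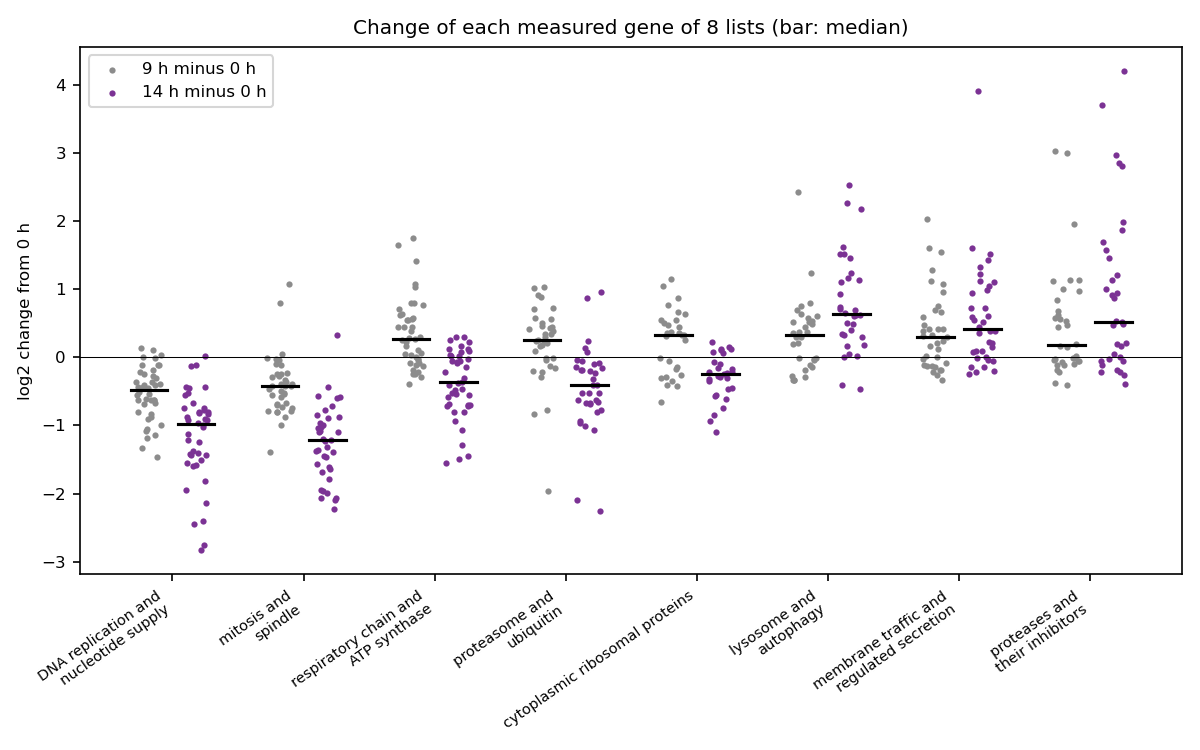
Each point is the change of 1 measured gene from 0 h (y axis, log2) at 9 h (grey) and at 14 h (purple) in 8 gene lists, and the black bars are medians. In the respiratory chain, proteasome and ribosomal lists the median lies above 0 at 9 h and below 0 at 14 h, while replication and mitosis lie below 0 at both times and lysosome, traffic and proteases above 0.

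Energy and redox genes showed no single direction. The glucose transporter Slc2a1 rose by 0.95 and Pgk1 by 0.71, and the lactate dehydrogenase subunit Ldhb fell by 1.65 to 8.27 and 8.44. Of 24 genes of glycolysis, these among them, 5 rose (20.8%, against 15.6% of all genes) and 4 fell (16.7%, against 15.7%). Only 2 rose without the WT array at 0 h, and 3 without the EP2KO array at 0 h or the WT array at 14 h. In the list of lipid and retinoid metabolism 13 of 38 rose (34.2%, against 15.6% of all genes) and 6 fell (15.8%, against 15.7%). Genes of fatty acid oxidation were among the rises, with Cpt1a, which passes fatty acids into mitochondria, from 9.77 and 9.78 to 11.93 and 11.74 (2.06 ± 0.146, adjusted p = 3.92e-06), and the dehydrogenases Acadm and Acadl at 1.56 and 1.21. Fasn, fatty acid synthase (−0.74), the carriers Fabp5 (−1.85) and Fabp3 (−0.99) and Aldh1a1, which makes retinoic acid (−2.94), fell. Of 36 glutathione and antioxidant genes 10 rose and 6 fell, or 3 fell without the EP2KO array at 14 h. Gsr, glutathione reductase, rose from 8.73 and 8.83 to 11.45 and 10.98, while Gstp1 (−1.54) and Gsta4 (−1.52), glutathione transferases, fell, the latter after a rise of 1.35 at 9 h. The metallothionein Mt2 was at 2.02 after 3.69 at 9 h.

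Of 33 heat shock and unfolded protein genes 7 rose and 7 fell, or 3 rose without the WT array at 0 h. With all arrays, rises and falls were each 21.2% of this list, against 15.6% and 15.7% of all genes. Pdia3, a disulfide isomerase, rose by 1.62 and the sensor Atf6 by 1.42, while Herpud1, which serves degradation at the endoplasmic reticulum, fell by 1.31 and the chaperone Hspa5 fell by 0.51. Of 24 apoptosis regulators 3 rose (12.5%, against 15.6% of all genes) and 2 fell (8.33%, against 15.7%), so both shares were below those of all genes. The rises were Mcl1 (0.82) and Bcl2l2 (0.65), which protect cells, and Bak1 (0.41), which promotes death. Bid and Tnfsf10 fell by 0.43 each. Without the EP2KO array at 14 h 5 rose and none fell, and 1 fell without the WT array at 0 h, the EP2KO array at 0 h or the WT array at 14 h. Of 40 transport genes 9 rose and 9 fell (22.5% each, against 15.6% and 15.7% of all genes). Abcb1b, a drug efflux pump, was at 5.35 and 4.98 at 0 h, 8.25 and 7.49 at 9 h and 10.45 and 10.18 at 14 h, and its close relative Abcb1a rose by 1.04. Sgk1, a kinase that regulates ion channels, rose by 4.48, the peroxisomal transporter Abcd2 fell from 8.80 and 8.82 to 6.38 and 6.49, and Car14, a membrane carbonic anhydrase, fell from 11.56 and 11.94 to 8.52 and 8.41.

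Among the 25 largest rises and the 25 largest falls, 10 genes stood in none of these lists. This number is no separate result, because the lists were chosen with earlier results of these data known. Pcyt1a, which makes phosphatidylcholine, rose from 7.11 and 7.27 to 11.15 and 10.85, with another probe set at 0.23. Itm2a, a membrane protein, rose from 5.95 and 6.48 to 9.93 and 10.11, of which 1.23 was present at 9 h. Me1, malic enzyme, rose by 3.62, Cited2, a coactivator-binding factor, by 3.53, Lrrfip1 by 3.58, with another probe set at −0.11, and Atp13a3, a membrane transporter, by 3.44. Lilr4b, a receptor of leukocytes, rose by 3.40. The 3 falls were Nt5dc2 (−2.67), the amino acid transporter Slc38a5 (−2.35) and Mid1ip1 (−2.35), a regulator of lipid synthesis.

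Markers of other cells were read beside these changes. The 10 measured cumulus and granulosa markers had a mean level of 11.08 and 11.20 at 0 h and 9.43 and 9.38 at 14 h; 8 fell, and Gja1 and Amh (−0.37) did not pass. Of 22 oviduct epithelium markers 4 rose (18.2%, near the 15.6% of all genes) and 1 fell (4.55%, against 15.7%). Their mean levels were 7.67 and 7.58 at 0 h and 7.85 and 8.0 at 14 h. Ovgp1, oviductin, which the oviduct epithelium secretes, was at 7.76 and 7.54 at 0 h, 7.57 and 7.39 at 9 h and 11.13 and 11.46 at 14 h (3.64 ± 0.151, adjusted p = 1.63e-07), with another probe set at 2.76. The keratins Krt18, Krt19 and Krt8 rose by 1.44, 0.75 and 0.51. The change of Krt18 was 0.60 in WT and 2.28 in EP2KO, and without the EP2KO array at 14 h it was 0.56. Foxj1, of ciliated cells, fell by 0.41, and Epcam (0.36), Pax8 (0.19), Muc1 (0.29) and Wfdc2 (−0.12) did not pass. Epcam passed as a rise with quantile normalization (0.47) and without the WT array at 14 h (0.56). The count of rises was 2 without the WT array at 0 h, the EP2KO array at 0 h or the EP2KO array at 14 h. Of 13 intermediate filament genes 5 rose, 3 of them these keratins; 3 rose without the WT array at 0 h and 2 without either EP2KO array at 0 or 14 h. The 14 h cells came from the oviduct, and the part of oviduct cells in these values was not tested. Of 15 oocyte markers none rose and 2 fell, and of 20 theca and stroma markers none rose and 2 fell. Of 13 endothelial markers Cdh5 rose (1.55) and 2 fell. In the oocyte, theca and endothelial lists the share that fell was at most 15.4%, so none exceeded the 15.7% of all genes. Of 6 erythroid markers Hbb-b2 rose (2.07), with an array at 10.34 in WT at 9 h. The counts of falls in the oocyte, theca and endothelial lists and the erythroid count changed by over 1.5 times when 1 array was left out, with 0 oocyte and 0 theca falls without the WT array at 0 h or at 14 h, 0 endothelial falls without either 14 h array, and 2 theca rises and no rise of Hbb-b2 without the EP2KO array at 14 h.

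Some leukocyte markers rose at 14 h. Of 29 measured markers 11 rose, 18 did not pass and none fell, against 1 rise and 1 fall at 9 h, and their mean level was 7.33 and 7.24 at 0 h, 7.17 and 7.14 at 9 h, and 7.61 in WT and 8.0 in EP2KO at 14 h. Cd53, a leukocyte tetraspanin, was at 5.66 and 5.62 at 0 h, 5.50 and 5.45 at 9 h and 7.15 and 8.0 at 14 h. S100a8, a neutrophil protein, was at 6.78 and 6.62, then 6.69 and 6.46, then 8.16 and 9.24. Lysozyme (Lyz2) rose by 1.68 and the adaptor Tyrobp by 1.20, but the pan-leukocyte gene Ptprc (−0.18), the macrophage gene Adgre1 (0.17) and the T cell gene Cd3e (−0.05) did not pass. The count was 7 without either the EP2KO array at 0 h or that at 14 h, and 4 of the probe sets kept by a filter on low values. In the list of innate immune and cytokine genes 13 of 37 rose and 3 fell, or 7 rose under that filter. Saa3, an acute phase protein, was at 6.92 and 7.25 at 0 h, 7.40 and 7.26 at 9 h and 9.97 and 10.48 at 14 h, the chemokine Cxcl2 rose by 1.43 and Il1b by 0.92. The receptors Il1r1 and Il10rb, at 2.45 and 2.30, had risen by 0.96 and 1.28 at 9 h. The part of leukocytes in these changes was not tested.

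**Figure D5:**
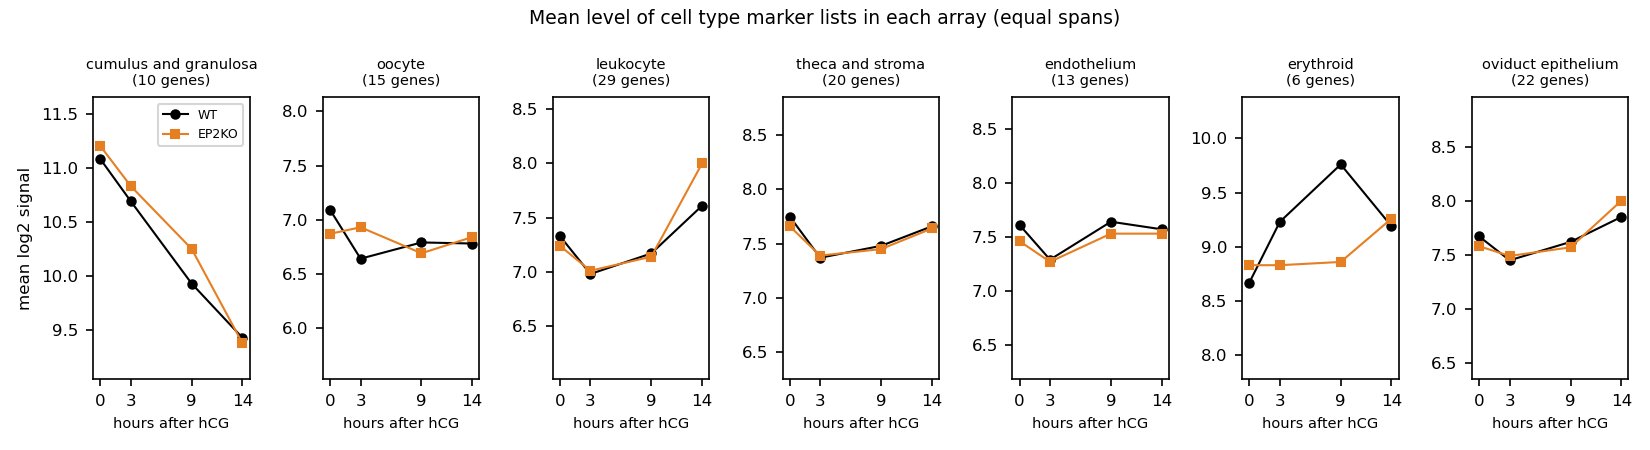
The mean log2 signal of 7 lists of cell type markers is plotted for each array against hours after hCG, with black circles for WT and orange squares for EP2KO and the same y span in each panel. The cumulus and granulosa markers fall from 11.08 and 11.20 to 9.43 and 9.38, and the leukocyte and oviduct lists are highest at 14 h.

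The difference between the genotypes at 14 h beyond that at the other times was tested as an interaction, and 10 probe sets passed, 0.0805% of those tested. Of these 8 were higher in EP2KO and 2 lower. The 5 with the smallest p among probe sets with 1 symbol were Ccl2, a monocyte chemokine, at 1.95 ± 0.217, Cxcl1 (1 of its 2 probe sets), a neutrophil chemokine, at 1.63 ± 0.212, Lilr4b at 1.61 ± 0.211, Krt18 at 1.76 ± 0.233 and the cathepsin Ctss at 1.5 ± 0.202 (adjusted p from 0.0357 to 0.0359). The 14 h arrays had Ccl2 at 5.46 (WT) and 7.44 (EP2KO), and the other 6 arrays from 4.69 to 4.99, and Ctss was at 8.41 and 9.76 with the others from 6.00 to 6.29. In both genes the 14 h arrays lay above all others and the EP2KO array lay highest. No probe set passed with array medians set equal, after a filter on low values, or in any fit that left out an array at 0, 3 or 9 h. At an unadjusted p under 0.05, 865 of the 12422 probe sets passed in limma's test as first fitted. A share of 0.05 would pass this threshold without any difference between the genotypes. The leukocyte and oviduct markers were also highest in the EP2KO array at 14 h, and their part in this difference was not tested. With 1 array at 14 h per genotype, this test rests on a single pair.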

How the data were processed

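Cumulus cell RNA was hybridised to 8 Affymetrix MG_U74Av2 arrays, 1 per genotype and time. The authors deposited RMA log2 values with 2 decimals, per the submitters' processing notes and the values themselves; the RMA version and software are not given in the sources used here. Per the labels, 100 ng of total RNA was amplified in 2 cycles, in wording that names WT only. All 12422 probe sets that are not controls (66 are) were fitted with limma 3.58.1 in R 4.3.3, with time and genotype as terms over all 8 arrays, 3 residual degrees of freedom and Benjamini-Hochberg adjustment; the 9 h difference came from this fit, and the genotype difference at 14 h from one with a further term and 2 residual degrees of freedom. P-values rest on the spread between single arrays, which cannot be told apart from courses over time that differ between the genotypes. The small number of arrays limits the precision. The fit was also run on simulated data with independent noise and no course over time that differs between the genotypes. That run therefore cannot show how such courses affect the p-values.

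Of the tested probe sets 10833 had 1 gene symbol (8251 genes), 396 several and 1193 none, and 10817 gene IDs matched RefSeq. In the 34 gene lists and 7 marker lists (1316 symbols, 1077 measured) a gene is its probe set with the highest mean; of the other probe sets of called genes, 260 had the same call, 577 did not pass and 36 had the opposite one. 1 of the lists is not reported here. The named genes are the 25 largest rises and 25 largest falls with the same direction in both genotypes (a gene once, by its smaller p), list members, Ptger2 and, for the genotype difference, the 5 smallest p. The members and lists were chosen with earlier results of these data known. Alternatives were median centring, quantile normalization, leaving out the 40% of probe sets with the lowest mean, a prior variance that follows the level, only the 4 arrays, no genotype term, a 2-fold minimum, averaged probe sets and leaving out each array. Promoter windows are from RefSeq, GRCm38.p6, and text was prepared with Python 3.11.15, pandas 2.3.3 and matplotlib 3.10.9.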

Additional observations from a re-analysis of the deposited data

Results flagged for a closer look

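The difference between the genotypes at 14 h departed from that over the other 3 times, by limma's interaction test, in 10 probe sets. This departure, EP2KO minus WT, was 1.95 for Ccl2, 1.80 for Arg1, an arginase of macrophages and other cells, 1.76 for Krt18, 1.63 for Cxcl1, 1.61 for Lilr4b and 1.5 for Ctss. It was 1.59 and 1.48 for 2 probe sets that do not have 1 symbol. It was −1.57 for Hmgb2, a chromatin protein of dividing cells, and −1.56 for Bnip3, a mitochondrial protein induced by low oxygen. The 14 h arrays had Arg1 at 9.24 (WT) and 11.15 (EP2KO), with earlier arrays from 6.89 to 8.03, and Bnip3 at 10.14 and 8.99, with earlier arrays from 7.76 to 9.30. None of the 10 passed with arrays centred on their medians, after the filter on low values, or without any 1 array at 0, 3 or 9 h.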

How the results depend on the processing

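With a 2-fold minimum added, 977 probe sets were called at 14 h, 575 higher and 402 lower. Leaving out 1 array gave 2289 to 3809 calls at 14 h (1065 to 1768 higher, 1206 to 2041 lower) and 1225 to 3036 at 9 h (623 to 1417 higher, 523 to 1627 lower). With the filter on low values 919 were lower at 9 h, against 1499. The genotype difference at 14 h gave 0 calls with median centring, with the filter and without any 1 array at 0, 3 or 9 h; leaving out a 14 h array could not be fitted. At 14 h the other alternatives gave from 2745 calls (filter) to 3713 (quantile normalization). Median centring gave 1720 higher and 1708 lower.

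Of 3316 values of the named genes under the alternatives, 3229 kept their call or lack of one, 57 lost the call and 30 gained it. Where either fit passed, 0 reversed in direction. Values that passed in neither fit were counted as kept whatever their direction. Calls were lost without 1 array, at the values given, for Atg5 (−0.49 to −0.26), Bak1 (0.28 to 0.46), Bid (−0.34 to −0.33), Ccl2 (1.18), Cdkn1a (0.50 to 0.94), Cebpb (0.86), Foxj1 (−0.44 to −0.33), Hbb-b2 (1.22 to 1.64), Hspa5 (−0.44 to −0.43), Kit (−0.55 to −0.32), Kitl (−0.61 to −0.59), Krt18 (0.56 to 1.68), Krt8 (0.33 to 0.56), Lipe (0.46 to 0.50), Nr5a2 (−0.69 to −0.49), Pgk1 (0.39 to 0.87), Runx1 (1.09), Scarb1 (0.39 to 0.76), Smad6 (−0.49 to −0.42), Srebf1 (0.52), Tgfb1 (0.44 to 0.50) and Tnfsf10 (−0.47 to −0.35). Calls were gained without 1 array for Amh (−0.54), Ccn2 (−0.56), Cenpe (−0.42), Cks2 (0.77), Col1a2 (−0.65), Cxcl1 (0.94), Epcam (0.56), Gmnn (−0.96 to −0.56), Hmgb2 (−1.66 to −0.88), Hmgcs1 (0.76), Lmnb1 (−0.58), Msmo1 (−0.76) and Prim2 (−0.66). For Cxcl1 this was its probe set with the highest mean. The Cxcl1 probe set named for the genotype difference is the other one, which rose by 1.89 at 14 h with all arrays. Of 1230 list counts 107 moved by over 1.5 times. The causes were not tested. The arrays are matched by genotype, which is a term of the fit. By replicate number no paired analysis was possible because each genotype has 1 array per time.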
